A study of Homo sapiens with 8 samples.

Results

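The clusters described here are stretches of the genome in which at least 5 LSD1-bound regions lay close together in both genotypes of a breast cancer cell line. They were found from the summits of LSD1 peaks in 4 lists, 1 for each library, by position alone, and the members were chosen by the measured summit positions and by presence in all 4 lists. Summits at most 500 bp apart were joined into 1 region, and regions with a summit in all 4 lists were called shared. Shared regions were then stitched while the midpoints of neighbours were at most 12500 bp apart, the distance commonly used to delimit super-enhancers, and stitched clusters of 5 or more were kept. The rule gave 2533 member regions in 432 clusters, out of 35861 shared regions (7.06%) and 68148 regions in all. The remaining shared regions were 17994 single regions, stitched to no other, and 15334 regions in 6420 groups of 2 to 4. Their number, spacing and presence in every library are therefore given as description only. The strength of the summits was not used by the rule.

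LSD1, encoded by KDM1A, is a histone demethylase that removes methyl groups from lysine 4 of histone H3, a mark of active and poised promoters and enhancers. It works largely within CoREST complexes, in which a corepressor of the RCOR family joins LSD1 to the histone deacetylases HDAC1 and HDAC2, and RCOR2 is a member of that family. LSD1 is known to sit at many active enhancers, and stitching neighbouring sites is a common way to delimit large enhancer domains. CUT&RUN maps such binding in permeabilised cells by tethering a nuclease to the antibody, so that DNA near the bound protein is cut free and sequenced.

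The cells were MDA-MB-231, a line of triple-negative human breast cancer, either parental or lacking RCOR2 (RCOR2-KO1, made with CRISPR/Cas9 and a guide RNA), with 2 LSD1 libraries of each genotype. The methods refer to earlier work for the making of knockouts in this line, and mention a mixture of several knockout clones after describing another line, so whether RCOR2-KO1 was such a mixture is not certain. The genotype cannot be told apart from other differences between these cell populations, and the summit lists give no check of RCOR2 itself. The 4 IgG libraries were input for the authors' peak calling and enter no value. The lists held 47354 (parental replicate 1), 54467 (parental replicate 2), 49586 (RCOR2-KO1 replicate 1) and 50119 summits (RCOR2-KO1 replicate 2), each with a MACS2 −log10 of a p or q value and no width, fold or read count. The depth of the libraries is unknown. Strength is therefore given as a percentile within its own list, on which 100 is the strongest summit, and positions are those of hg19. The methods say that the CUT&RUN was repeated, and neither they nor the labels say whether the replicates came from separate cultures, so the p-values measure the spread between these libraries, which may be technical.

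Members were spaced by a median of 5.92 kb (quartiles 3.96 and 8.69 kb), and neighbours lay between 1.774 and 12.4975 kb apart, the upper end being set by the rule. There were 238 clusters of 5 regions, 89 of 6, 62 of 7, 22 of 8, 14 of 9, 4 of 10 and 3 of 11. Spans between the first and last midpoints ran from 12.99 to 63.7 kb with a median of 29.9 kb, and all spans together covered 13.5 Mb. Most clusters stood alone: neighbouring clusters on a chromosome were a median of 2.55 Mb apart, although 10 neighbouring pairs lay within 25 kb of each other and 36 within 100 kb. At the edge of the rule, 55 distances inside clusters were within 0.5 kb below the limit, and 27 distances next to a cluster fell within 0.5 kb beyond it. The summits of the 4 libraries within a member were spread over a median of 105 bp, beside 103 bp over all shared regions, and only 2 members held more than 1 summit of the same list.

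Clustered regions carried stronger LSD1 summits than isolated ones in every library. In parental replicate 1 the median percentile was 70.1 for members and 55.4 for single regions. It was 74.0 against 61.4 in parental replicate 2, 71.7 against 57.6 in RCOR2-KO1 replicate 1 and 71.5 against 58.0 in RCOR2-KO1 replicate 2. All 4 libraries showed the same direction, and the lowest member median lay above the highest single median. The difference averaged 13.7 ± 0.863 percentile points (SD, n = 4 libraries), with a two-sided exact sign-flip permutation p of 0.13, the smallest that 4 libraries allow. Against groups of 2 to 4 regions, whose medians were 61.8, 66.8, 64.0 and 63.9 in the same order, members were stronger by 7.69 ± 0.432 points (SD, n = 4), with the same exact p of 0.13. The 4 libraries scored the same regions, so these SDs and p-values measure the spread between libraries and not that over regions or clusters.

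Strength rose with the number of neighbours and then levelled off. The median of the mean percentile over the 4 libraries was 56.4 for single regions, 61.0 in pairs, 65.4 in groups of 3 and 67.1 in groups of 4. It was 71.7 in clusters of 5, 71.4 in clusters of 6, 68.9 in clusters of 7, 69.7 in clusters of 8 and 74.0 in clusters of 9 or more. Clusters of 6, 7 and 8 therefore did not exceed clusters of 5 on this measure. The groups just outside the threshold, 538 groups of 4 with 2152 regions, had a median of 67.1, and the 238 clusters just inside it, with 1190 regions, 71.7.

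**Figure D1:**
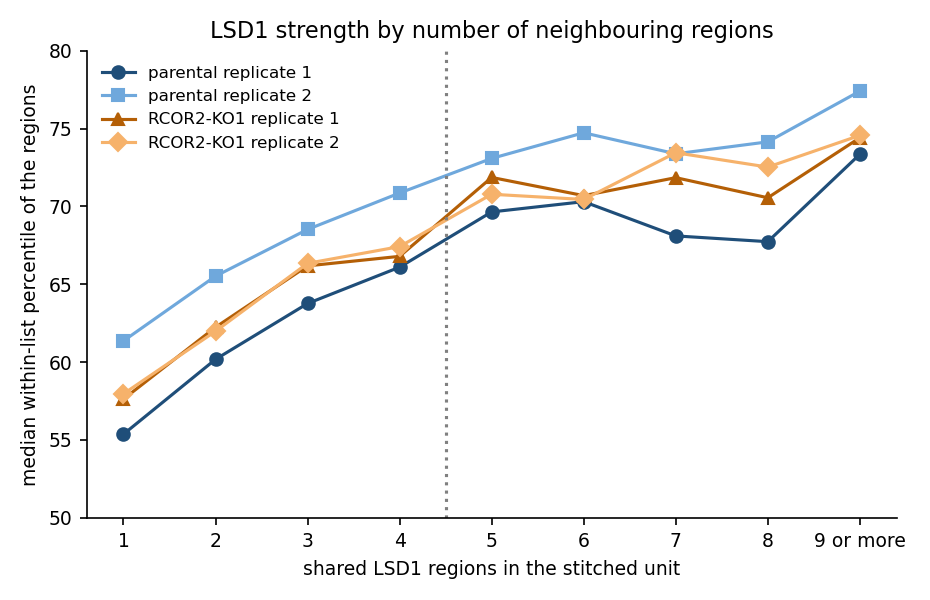
Median within-list percentile of LSD1 regions (y axis, 50 to 80) against the number of shared regions in the stitched unit (x axis), with 1 line for each library and a dotted line at the threshold for a cluster. In each library the median rises from single regions (55.4 to 61.4) to groups of 4 (66.1 to 70.9), and it changes little and unevenly from 5 regions on, up to 73.4 to 77.4 in units of 9 or more.

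The shift ran through the distribution. The lower quartile of the mean percentile was 48.1 in clusters of 5 and 38.0 for single regions, and the upper quartile 86.2 and 75.2. A mean percentile of 90 or above was found in 493 members (19.5%), in 13.1% of regions in groups of 2 to 4 and in 7.89% of single regions, beside 10.9% of all shared regions. Weak summits were not missing from clusters: 3.32% of members had a mean percentile under 20, beside 3.60% in groups of 2 to 4 and 4.57% of single regions.

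A typical cluster held sites of widely differing strength. At least 1 member at or above the 90th percentile was present in 276 clusters (63.9%), while 44 clusters held both such a member and one under the 20th. All members were at or above the 50th percentile in 80 clusters (18.5%), and in 0 clusters were all members below it. The range between the weakest and strongest member of a cluster had a median of 56.2 points. The SD within a cluster had a median of 22.2 points, close to the SD of 23.8 over all members. Neighbouring members resembled each other little in strength, with Pearson's r of 0.078 and Spearman's rho of 0.077 over 2101 neighbouring pairs, which share libraries and can share a cluster. For neighbouring shared regions, r was 0.085 at 2 to 4 kb, 0.077 at 4 to 8 kb and 0.068 from 8 kb to the stitching distance. It was 0.065 over 6572 pairs 25 to 50 kb apart. The r of members thus lay within the range of shared regions at like distances.

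Members inside a cluster were slightly stronger than those at its ends. The 1669 inner members had median percentiles of 70.4 and 74.5 in the parental and 72.6 and 73.5 in the RCOR2-KO1 libraries, and the 864 outermost members 68.8, 73.4, 69.6 and 68.8. The difference was 2.56 ± 1.59 points (SD, n = 4), positive in all 4 libraries, with a two-sided exact sign-flip permutation p of 0.13, the smallest possible. Here too the libraries scored the same members, so the SD and p do not measure the spread over clusters.

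The 3 clusters with the most regions held 11 each, and the strongest of them was at chr2:36655210-36716695, where cluster coordinates give the first and last midpoints. Its strongest region, the 10th from the left at chr2:36713402-36713507, had percentiles of 98.4 and 96.8 in the parental and 97.6 and 99.2 in the RCOR2-KO1 libraries, from deposited −log10 values of 102, 103, 103 and 114. The 3rd region, at chr2:36665856-36665914, was nearly as strong at 98.7, 97.6, 98.0 and 96.3. The 6 regions between these had mean percentiles from 61.2 to 91.2, and the weakest sites lay towards the ends of the cluster. The 2nd region, at chr2:36660141-36660711 and next to the 3rd, had percentiles of 11.4, 26.9, 17.4 and 5.58, from −log10 values of 5.88, 9.06, 6.71 and 4.18. The last region, at chr2:36716680-36716707, had percentiles of 57.9, 26.1, 51.1 and 45.9. The order of strong and weak sites was thus broadly kept by the 4 libraries.

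The genotypes did not overlap at 3 of the 11 regions of this cluster, all with RCOR2-KO1 above, beside 19.6% of all shared regions with RCOR2-KO1 above and 22.4% with it below. The 7th region, at chr2:36695740-36696153, had percentiles of 30.7 and 56.6 in the parental libraries and 84.2 and 79.2 in RCOR2-KO1, and the deposited −log10 values were 10.3 and 22.7 against 49.3 and 36.9. Both knockout libraries lay above both parental ones. The 1st region, at chr2:36655089-36655348, had 68.2 and 38.4 against 74.4 and 74.3, with the parental libraries further apart than the genotypes' nearest values. The 8th region, at chr2:36705577-36705683, had 86.9 and 89.1 against 97.0 and 92.0. Over the whole cluster the mean percentile was 70.1 and 66.9 in parental and 75.4 and 72.4 in RCOR2-KO1 libraries, a difference of 5.36 ± 4.71 (SE) points that did not pass the test (limma, adjusted p = 0.674).

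**Figure D2:**
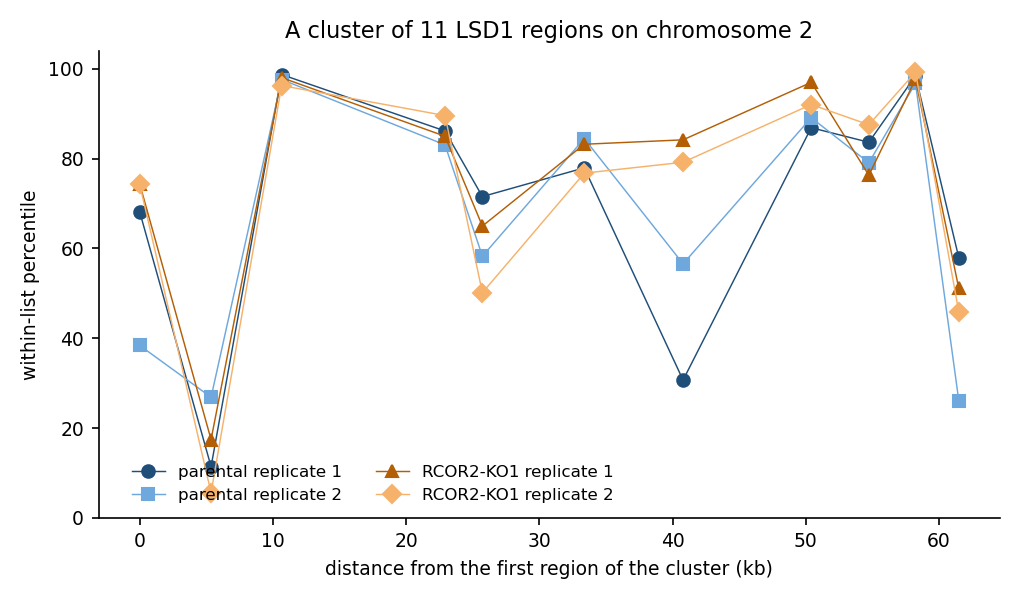
Within-list percentile (y axis, 0 to 100) of the 11 regions of the cluster on chromosome 2 against distance from its first region (x axis, kb), with 1 line for each of the 4 libraries. The 3rd and 10th regions are above 95 and the 2nd is under 30 in all libraries, and the widest gap between genotypes is at the 7th region, 40.8 kb from the first.

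The other clusters with 11 regions differed in their mixture. The cluster at chr22:36725535-36784234 had mean percentiles of 59.6, 64.7, 59.7 and 59.3 (parental replicates 1 and 2, then RCOR2-KO1 replicates 1 and 2, as in all lists of 4 values here), and its members ranged from a mean percentile of 17.7 to 94.6. At chr11:63993767-64052588 the cluster means were 63.4, 64.0, 52.1 and 50.3, so both RCOR2-KO1 libraries lay below both parental ones. That difference of −12.47 ± 5.13 (SE) did not pass the test (limma, adjusted p = 0.294). In it 9 of 11 members were lower in RCOR2-KO1 by their means, while other shared regions within 1 Mb had a median difference of −5.39 points. The 4 clusters of 10 regions were at chr5:76081496-76134912, chr14:50433676-50490579, chr8:118990775-119047289 and chr19:13243474-13283445. Their differences lay between 0.55 and 4.11 points, and the smallest adjusted p was 0.720.

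The strongest clusters were uniformly strong. The cluster at chr8:128902426-128944143 had the highest mean percentile, 95.8 over 6 regions spread across 41.7 kb, with library means of 98.1, 96.5, 94.0 and 94.4. Its strongest region, at chr8:128911646-128911742, had percentiles of 99.5, 99.2, 99.5 and 99.3, and 4 of the 6 regions had mean percentiles above 98. The region at its left end, chr8:128902373-128902440, was the weakest, with 97.3 and 95.1 in parental and 86.8 and 76.3 in RCOR2-KO1 libraries. Over the cluster the difference of −3.11 ± 1.24 (SE) points did not pass the test (limma, adjusted p = 0.272). The cluster at chr1:86064918-86094843 followed, with library means of 94.7, 93.3, 93.6 and 93.2 over 5 regions, and that at chr17:76326340-76353122, with 91.6, 90.5, 93.7 and 90.5 over 6 regions. In both of the latter the genotypes overlapped. The widest cluster, chr16:57625402-57689116, held 9 regions over 63.7 kb with library means of 90.7, 88.4, 85.1 and 84.3. The next widest, chr19:17407265-17469430, held 9 regions over 62.2 kb with 81.5, 78.7, 74.1 and 74.0. In both wide clusters RCOR2-KO1 lay below parental, and neither difference passed the test (limma, adjusted p = 0.357 and 0.551).

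Loss of RCOR2 is the comparison the design was made for, and over all members the mean within-list percentile hardly differed. Being a rank within its own list, it cannot show a rise or fall of LSD1 signal common to a whole list. The mean percentile of the 2533 members was 64.3 and 69.2 in the parental libraries (mean 66.7 ± 3.46, SD, n = 2) and 65.9 and 66.3 in RCOR2-KO1 (66.1 ± 0.261, SD, n = 2). Both knockout libraries lay between the parental ones. The difference was −0.617 points (exact permutation test, two-sided, p = 1, where 0.33 is the smallest possible), beside −0.708 for the other shared regions. It became 1.97 without parental replicate 2, the longest list, with members found anew from the remaining lists and so not the same 2533. Within a genotype the members' percentiles were ranked more alike than between genotypes, with Spearman's rho over 2533 members of 0.889 for the parental pair and 0.880 for the knockout pair, against 0.821 to 0.849 for the 4 pairs across genotypes. A region that lost its summit in even 1 knockout list could not be a member, so the rule limits how large a fall can be seen here.

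Cluster by cluster, differences were mostly small and went both ways. The difference RCOR2-KO1 minus parental ran from −20.6 to 28.8 points with a median of −0.48 and an SD of 6.69. It was above 0 in 195 clusters and below 0 in 237, and within 5 points of 0 in 243 (56.25%). It was over 10 points in 22 clusters in the higher and 30 in the lower direction. Every member was higher in RCOR2-KO1 in 14 clusters and every member was lower in 19. Both knockout libraries lay above both parental ones in 85 clusters (19.7%, beside 19.8% of all 24846 stitched units, single regions included) and below them in 113 (26.2%, beside 23.2%). For single members the shares were 487 above (19.2%, beside 19.6% of all shared regions) and 544 below (21.5%, beside 22.4%). These shares of members and clusters were near those of all stitched units and all shared regions.

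**Figure D3:**
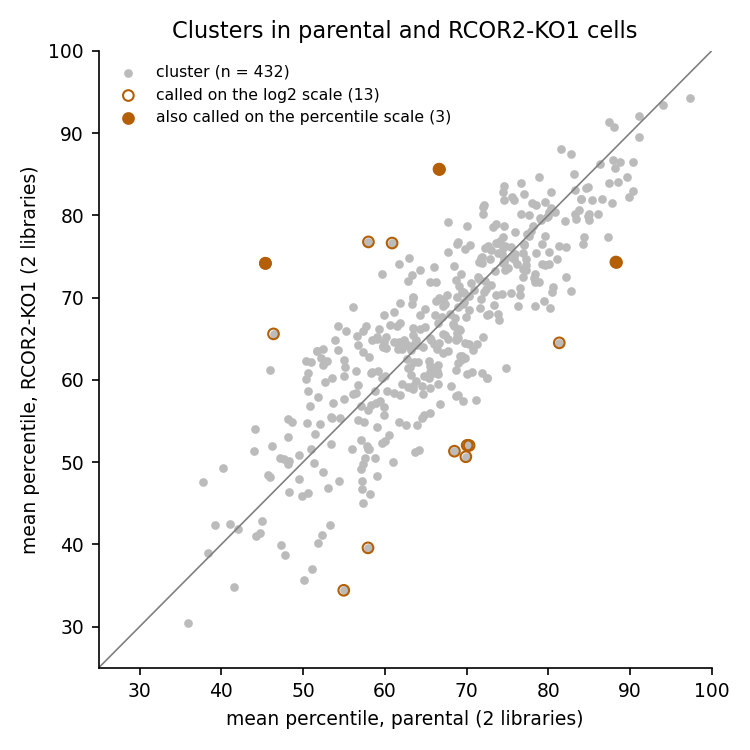
Mean percentile of each of the 432 clusters in the 2 RCOR2-KO1 libraries (y axis) against that in the 2 parental libraries (x axis), with the line of equality. Points lie along the line between about 30 and 98, with 13 clusters called on the log2 scale ringed (5 above and 8 below the line) and the 3 also called on the percentile scale filled.

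Replicate differences moved together across clusters. The difference between the libraries numbered 1 and that between the libraries numbered 2 had Pearson's r of 0.443 and Spearman's rho of 0.409 over 432 clusters, which share the 4 libraries. The corresponding r was 0.297 over members taken one by one and 0.296 over single regions. The differences between replicates within parental and within RCOR2-KO1 had r of 0.045 over the clusters. Neighbouring members also weakly resembled each other in their difference (r = 0.140, 2101 pairs). For neighbouring shared regions, this r was 0.188 at 2 to 4 kb, 0.184 at 4 to 8 kb and 0.118 from 8 kb to the stitching distance. Beyond that distance it was 0.135 up to 25 kb and 0.099 at 25 to 50 kb (6572 pairs). The r of members thus lay within the range of shared regions at like distances. Clusters followed their surroundings weakly: the cluster's difference and the median difference of other shared regions within 1 Mb, a median of 39 regions, had r of 0.204 and rho of 0.228. The part of such regional differences in the cluster values was tested only by subtracting the local median.

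**Figure D4:**
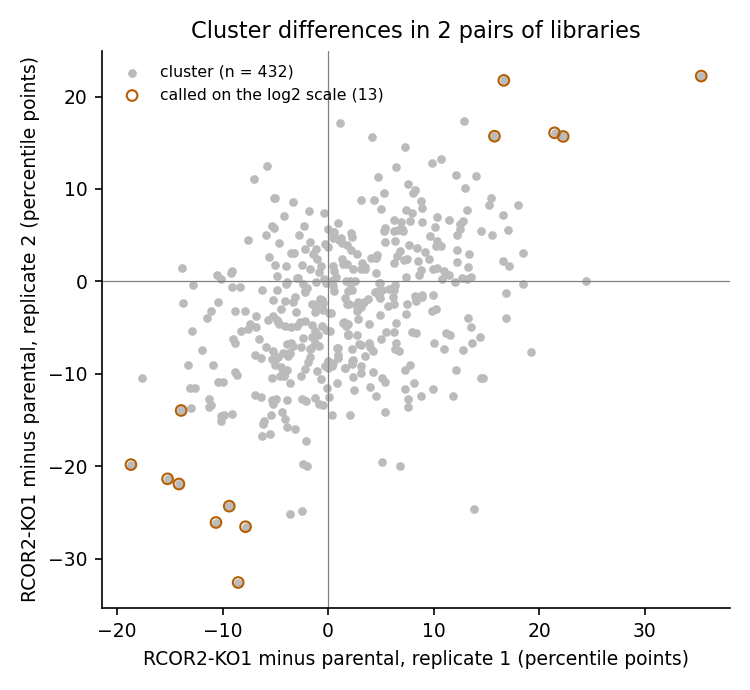
RCOR2-KO1 minus parental difference in mean percentile of each of the 432 clusters, replicate 2 libraries (y axis) against replicate 1 libraries (x axis), in percentile points. The numbers were not shown to pair the libraries, and Pearson's r is 0.443; the 13 clusters called on the log2 scale (ringed) lie in the upper right and lower left.

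In the test across the genome, 3 of 432 clusters differed between genotypes on the percentile scale (limma, adjusted p under 0.05), beside 0.197% of all stitched units (49 of 24846). These were 2 higher and 1 lower in RCOR2-KO1, beside 0.0765% and 0.121% of units. At an unadjusted p under 0.05 there were 64 clusters (14.8%, beside 12.8%). None of the 2533 members was called one by one (0 of 35861 shared regions, 0%), by a fit on percentiles that also recovered none of the regions changed in simulated data, so this count says nothing of whether members differed. At an unadjusted p under 0.05 there were 277 members (10.9%, beside 11.6%). On the log2 scale of the quantile-normalised −log10 values, an alternative, limma called 13 clusters (3.01%, beside 1.52% of units). Of these 5 were higher (1.16%, beside 0.845%) and 8 lower (1.85%, beside 0.672%). It also called 26 members (1.03%, beside 1.25% of shared regions), 12 higher (0.474%, beside 0.647%) and 14 lower (0.553%, beside 0.608%). All 3 clusters called on the percentile scale were among the 13. Of the 24846 units, 17994 were single regions, whose values are not averaged over members as those of clusters are. The shares of clusters and of units are therefore not like for like.

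The largest gain was in a short cluster of 5 regions at chr2:75815230-75833752, whose mean percentile was 42.7 and 48.1 in parental and 78.1 and 70.3 in RCOR2-KO1 libraries. The difference was 28.8 ± 5.13 (SE) points (limma, adjusted p = 0.00615) and 1.39 on the log2 scale (adjusted p = 6.12e-08). All 5 members were higher, and the gain lay in the 3 on the left. The first, at chr2:75815164-75815321, had percentiles of 27.2 and 29.6 against 85.7 and 71.9, from −log10 values of 9.29 and 9.90 against 52.0 and 29.97. The second, at chr2:75819271-75819430, had 2.45 and 17.3 against 63.1 and 48.2. The third, at chr2:75822878-75823175, had 44.8 and 64.1 against 89.0 and 91.5. In each of these the genotypes did not overlap. The fourth overlapped, and the fifth was strong in all libraries (96.0, 96.3, 98.0 and 99.8). Other shared regions within 1 Mb had a median difference of 1.46 points. Without RCOR2-KO1 replicate 1 the difference was 24.9 and no longer passed (adjusted p = 0.240), and without the trend of spread on strength the adjusted p was 0.187.

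The other gain called on the percentile scale was at chr4:11630006-11644926, 5 regions within 14.9 kb. Its cluster means were 65.3 and 68.0 against 87.6 and 83.7. The difference was 19.0 ± 4.13 (SE) points (limma, adjusted p = 0.0293). It was widest at the right end, at chr4:11644808-11644952, where percentiles were 32.3 and 29.6 against 84.8 and 67.2. The region at chr4:11633866-11634298 followed with 51.7 and 61.9 against 80.9 and 87.0. The fourth region from the left did not share in it, with 94.7 and 83.8 against 89.5 and 87.9. Here the surroundings moved the same way: other shared regions within 1 Mb had a median difference of 9.78 points, and with that median subtracted from each library the difference was 10.1 (adjusted p = 0.437). The call was also lost without parental replicate 1 (17.6, adjusted p = 0.0611), without RCOR2-KO1 replicate 1 (17.0, adjusted p = 0.197) and without the trend (adjusted p = 0.295).

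The called loss was in a strong cluster of 6 regions at chr16:16082538-16116083, named after its values were seen, with means of 87.7 and 88.8 against 73.8 and 74.8. The difference was −14.0 ± 3.24 (SE) points (limma, adjusted p = 0.0493). It rested mostly on its first region, chr16:16081941-16082897, with percentiles of 95.1 and 92.6 in parental and 33.7 and 48.1 in RCOR2-KO1 libraries. The second region, at chr16:16092392-16092450, stayed at 98.7 and 93.6 against 98.5 and 96.2, and the last, at chr16:16116038-16116105, had 81.8 and 94.7 against 78.4 and 59.1. Other shared regions within 1 Mb had a median difference of −2.20 points. The call was lost whichever of the 4 libraries was left out (adjusted p between 0.0688 and 0.192), without the trend (adjusted p = 0.310) and with the local median subtracted (−7.70, adjusted p = 0.578).

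The other clusters called on the log2 scale did not pass on the percentile scale, where their adjusted p lay between 0.0803 and 0.179. Those higher in RCOR2-KO1 were at chr2:70571538-70599154 (53.0 and 63.0 against 74.5 and 79.1), chr9:117751398-117785491 (49.8 and 43.0 against 66.4 and 64.7) and chr2:48920983-48966145 (59.4 and 62.4 against 75.1 and 78.1). At chr2:70571538-70599154 both knockout libraries lay above both parental ones in each of the 5 members, while at chr2:48920983-48966145 this held for 4 of 8. Its first region, chr2:48920974-48921001, had 14.6 and 33.4 against 68.9 and 72.9, and its last, chr2:48966131-48966176, had 91.5 and 90.2 against 83.8 and 94.4. In that cluster strongly higher members thus sat beside members that overlapped between genotypes.

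Among those lower in RCOR2-KO1, the cluster of 8 regions at chr12:108727565-108770109 had means of 51.5 and 64.4 against 40.9 and 38.3, and all 8 members were lower. Its first region, chr12:108727285-108728069, had 84.1 and 78.5 against 22.2 and 36.3, and its last, chr12:108770096-108770109, stayed strong at 93.2 and 99.3 against 92.3 and 91.8. The cluster of 6 regions at chr8:102093050-102130215 had means of 68.8 and 71.0 against 50.1 and 51.2, again with all members lower and the widest gap in its first region (78.6 and 74.7 against 27.9 and 39.4). The lowest difference of all clusters, −20.6 points, was at chr5:139015512-139047639, where the parental libraries themselves differed (46.6 and 63.3 against 38.1 and 30.7). Without parental replicate 2 that difference was −12.2 points, and that at chr12:108727565-108770109 was −11.9. The others were at chr6:47121030-47156404 (77.5 and 85.2 against 68.1 and 60.9), chr15:75936891-75965482 (65.1 and 72.0 against 57.3 and 45.4, a difference of −11.3 without RCOR2-KO1 replicate 2), chr16:2058170-2097855 (66.9 and 73.2 against 52.8 and 51.3) and chr16:30406911-30441484 (68.1 and 72.5 against 52.9 and 51.1). Around chr16:2058170-2097855 other shared regions within 1 Mb were lower as well, with a median difference of −7.46 points. With the local median subtracted from each library, the difference there went from −18.0 to −7.27 points. It also went from −16.9 to −9.54 at chr6:47121030-47156404, from −17.2 to −9.24 at chr15:75936891-75965482 and from −20.6 to −13.8 at chr5:139015512-139047639. It stayed at −16.3 or lower at the other 3. The median difference of other shared regions within 1 Mb was smaller than these changes on chromosomes 6, 15 and 5, at −1.08, −3.30 and −1.04 points. A difference of library medians need not equal a median of differences, so the size of the regional part depended on the measure.

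The 26 members called on the log2 scale sat in 22 clusters, and only 2 clusters held more than 1 of them. The genotypes did not overlap in any of the 26, beside 19.6% of all shared regions with RCOR2-KO1 above and 22.4% with it below. The calls came from the same values, so this is no separate support for them. Of the 26, 11 lay in clusters that were themselves called on that scale. The lowest adjusted p was at chr14:103588608-103589091, where percentiles were 90.3 and 92.2 in parental and 27.9 and 24.6 in RCOR2-KO1 libraries (−2.83 ± 0.465 on the log2 scale, SE, adjusted p = 3.78e-05). Next by adjusted p was the first region of the cluster at chr16:16082538-16116083. At chr15:71095137-71095206 the percentiles were 94.7 and 95.4 against 56.7 and 59.8, and at chr2:85817641-85817823 they were 81.1 and 78.9 against 29.4 and 28.0. Gains of the same kind were at chr17:48999623-48999726 (51.4 and 61.2 against 93.2 and 92.1) and chr2:55329244-55329307 (56.5 and 68.4 against 91.4 and 92.8). The clusters around these last 4 and around the member on chromosome 14 were not called on either scale. All of these members were singled out here after their values were seen.

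Some sites within the spans were found in 1 genotype alone. Inside the 432 spans, 35 regions were listed in both parental libraries and in neither RCOR2-KO1 library, and 28 were the reverse. These were 1.16% and 0.925% of all regions inside spans, beside 4.38% and 3.75% of those outside. Parental-only regions thus made up 55.6% of the 63 (exact 95% binomial interval 42.5 to 68.1%, counting error only), beside 53.9% outside the spans (52.5 to 55.2%, from 2853 and 2441 regions). No cluster held more than 1 of either kind, 6 clusters held 1 of each, and 375 held neither. A further 119 regions inside spans were in 3 lists and 258 in 1 list. The share of regions that were shared was 83.7% inside spans and 51.2% outside, and the rule, which needs shared regions, sets the first of these.

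Clusters were unevenly spread over the chromosomes. Members made up 9.66% of the shared regions of chromosome 15, 9.49% of those of chromosome 20 and 9.21% of those of chromosome 10, but only 2.49% on chromosome 13 and 2.98% on chromosome 4, against 7.06% in all. Chromosome 1 held the most clusters, 54. Across 23 chromosomes the member share and the number of shared regions per Mb had r of 0.515 and rho of 0.632. With protein-coding gene density (genes per Mb in the RefSeq annotation of GRCh38) the member share had r of 0.332 and rho of 0.557. Shared regions per Mb and genes per Mb themselves had r of 0.862, so these properties cannot be told apart over so few chromosomes.

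The direction of the genotype differences also varied by chromosome. On chromosome 16, 11 of 16 clusters (68.75%) had both RCOR2-KO1 libraries below both parental ones, beside 29.9% of the other 713 stitched units of that chromosome and 23.2% of all units. There was 1 with them above (6.25%, beside 13.2% of those other units and 19.8% of all). The median cluster difference was −7.99 points, beside −4.77 for the other shared regions of that chromosome. On chromosome 2, 12 of 35 clusters lay above (34.3%, beside 20.4% of its other units) and 5 below (14.3%, beside 21.97%), with a median of 1.38 points beside −0.39. On chromosome 12, 9 of 18 lay below (50%, beside 22.5%) and 3 above (16.7%, beside 18.3%), with a median of −3.96 points beside −0.92. The other units of a chromosome include single regions, while a cluster is a mean over 5 or more, so the shares are not like for like. These chromosomes were picked after their values were seen, and no test was made. The clusters of chromosome 16 thus sat on a chromosome whose other shared regions were lower too, and the part of chromosome-wide differences in their values was not tested.

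**Figure D5:**
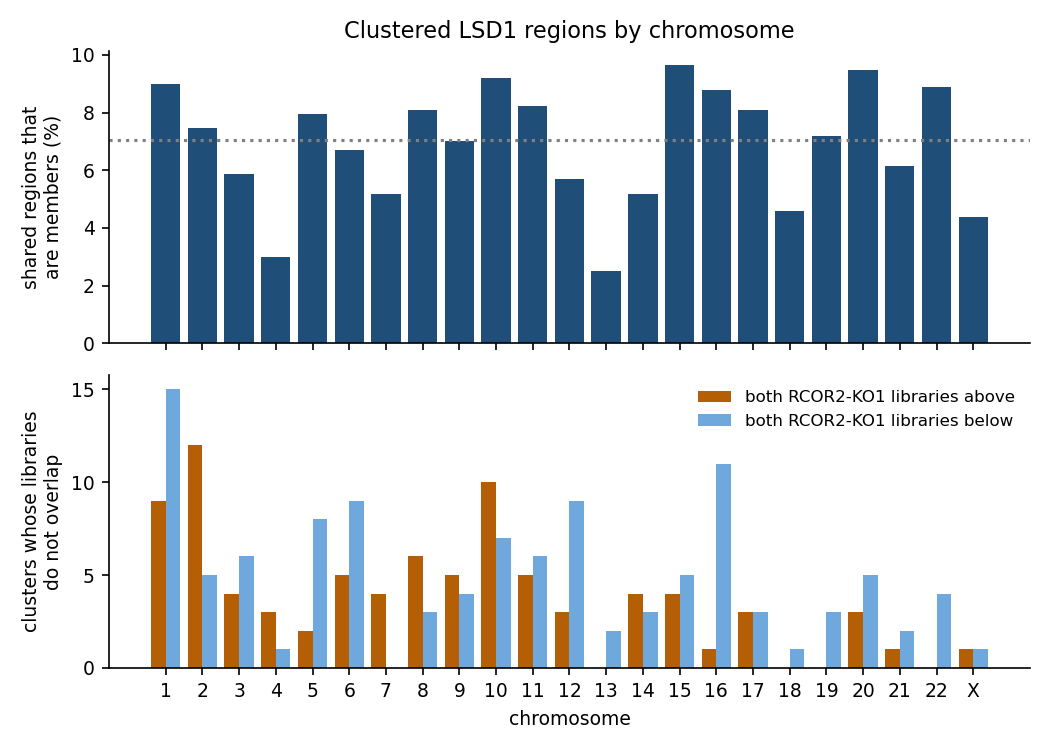
Upper panel, share of shared LSD1 regions that are cluster members on each chromosome (y axis, %, dotted line at 7.06%); lower panel, number of clusters with both RCOR2-KO1 libraries above (orange) or below (blue) both parental libraries. Chromosomes 13 and 4 have the lowest member shares, and chromosome 16 has 11 clusters below and 1 above.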

How the data were processed

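LSD1 CUT&RUN summits from 2 parental and 2 RCOR2-KO1 libraries were used, with groups and replicate numbers from the labels. According to the submitters' processing notes, the authors used FastQC 0.11.2, Bowtie2 2.3.3.1, Picard and MACS2 2.1.0 with hg19. The authors deposited 1 summit for each peak with a −log10 significance value (p or q, which the sources used here do not say), and the lowest value of a list was between 1.31 and 1.40. A summit's percentile gives how much of its own list did not exceed its value, and a region takes its highest summit. The percentile is a rank and does not remove the effect of list length, since weak summits added to a longer list raise the percentile of the others, and a −log10 value depends on sequencing depth, which is unknown.

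The clusters, and the rule for those named, were chosen with earlier results of these data known. Named clusters were the 10 with the most regions, the 5 highest and 5 lowest differences among those whose libraries do not overlap, the 3 with the highest mean percentile and the 2 widest, together with all members of the cluster with the most regions.

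Sets were compared over libraries with exact permutation tests, two-sided. Genotypes were compared with limma 3.58.1 (R 4.3.3, empirical Bayes with trend) on percentiles of all 35861 shared regions and on mean percentiles of all 24846 stitched units, with Benjamini-Hochberg adjustment over each table and a threshold of 0.05. The planned model of spread on the log2 number of regions could not be fitted because of ties, so the spread of units was estimated within size classes of 1, 2, 3, 4, and 5 or more regions. Fits on percentiles and on an unbounded scale were tested on simulated data with Gaussian noise equal for all regions. Those of stitched units on percentiles, and of regions on the unbounded scale, recovered most regions or units given a large change. That of regions on percentiles recovered none. The unbounded scale was the normal quantile of the percentile, and the fit on the log2 scale of the −log10 values was not simulated. Alternatives were other joining and stitching distances, cluster sizes, list lengths, scales, a replicate block and leaving out each library. Tables and permutation tests used scipy 1.17.1, numpy 2.4.6 and pandas 2.3.3 under Python 3.11.15. No hg19 annotation or sequence was used here, so clusters are given by position without gene names, promoter shares or sequences, and the gene lists made for this purpose were not applied.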

Additional observations from a re-analysis of the deposited data

How the results depend on the processing

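The number of members and clusters depended on the rule. Joining summits within 250 bp gave 1557 members in 272 clusters, with 18 RCOR2-KO1-only regions inside spans. Stitching within 10 kb gave 1447 in 253, and within 15 kb 3897 members. A minimum of 4 regions gave 4685 in 970, and a minimum of 8 gave 375 in 43. The upper 50% of each list gave 374 in 68, with 3 parental-only and 5 RCOR2-KO1-only regions in spans. Leaving out 1 library gave 2815 to 3098 members and 475 to 525 clusters, and members exceeded single regions by 13.3 to 14.6 points. The mean genotype difference reversed with lists cut to the shortest length (0.185) and with percentiles over shared regions alone (0.00119), and ran from −2.85 to 1.97 with 1 library left out. Called members numbered 26 on the log2 scale and 6 with the local median subtracted, an alternative chosen after seeing the data, and 0 to 6 with 1 library left out. Called clusters numbered 13 on the log2 scale, 9 with percentiles over shared regions alone, 0 without the trend and 1 to 6 with 1 library left out. Replicate numbers were not shown to pair the libraries: deviations of same-numbered libraries correlated at 0.051 over members. With a replicate block, 11 members and 3 clusters were called and the mean difference stayed at −0.617 (1.65 for the libraries numbered 1, −2.88 for those numbered 2). Among uncalled clusters, subtracting the local median from each library reversed the difference at chr22:36725535-36784234 (3.36), chr5:76081496-76134912 (−6.29), chr16:57625402-57689116 (0.374), chr5:172185263-172234414 (1.04), chr17:76326340-76353122 (−2.94) and chr1:86064918-86094843 (1.25). The log2 scale reversed the last 2 of these (−0.0797 and 0.0295). Leaving out 1 library gave −2.09 to 3.19 at chr5:76081496-76134912, −0.74 to 4.41 at chr19:13243474-13283445, −0.55 to 2.59 at chr17:76326340-76353122 and −1.28 to 0.10 at chr1:86064918-86094843. Causes were not tested. With 1 library left out, the lone library of a genotype is assumed to vary like the others. The share of members at promoters was not run, since no hg19 annotation was used.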
